A study of Mus musculus with 4 samples.

Results

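The Hox genes are the 39 protein-coding genes of the mouse HoxA, HoxB, HoxC and HoxD clusters, taken here as all protein-coding rows of the count table whose symbol is Hox followed by a cluster letter and a number. All 39 were found among the 45706 genes of the table, 21519 of which are protein coding. They were followed in the only group of the series, 4 libraries of cells labelled medial basal radial glial cells, from the medial neocortex of mice at embryonic stage E18.5. The strain was C57BL/6JOlaHsd, every library carried the heterozygous Tubb-GFP/+ reporter genotype, and the titles name DiI, a lipophilic membrane dye. Basal radial glia are dividing progenitor cells of the developing cortex that lie away from the ventricle and retain a fibre towards the brain surface. With a single group there is no contrast to test, and no label states if each library had an animal of its own, so errors here measure only the spread between these libraries, which may be technical.

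Hox genes encode homeodomain transcription factors that give cells of the hindbrain, spinal cord and trunk their position along the body axis. In each cluster the order of the genes matches the order of their expression domains, from the low-numbered genes of the hindbrain to the high-numbered genes of the tail, limb and genital region, and genes with the same number in different clusters form a paralog group. The forebrain forms in front of these domains, and in cells outside them the clusters are kept silent by Polycomb group proteins. Radial glia of the neocortex therefore serve as a case in which a whole gene family is expected to be off. The counts of its members are set here beside the floor of these libraries, and the source of these counts was not tested.

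Sequences at the starts of 4 of these genes are shown because the number of CpG dinucleotides there is set against expression further on. Given below are the 250 bases upstream of a RefSeq start (GRCm38.p6, 5′ to 3′ on the strand of the gene, each CpG in capitals) for Hoxa10 and Hoxd1, which had 10 and 8 counts, and for Hoxa13 and Hoxd13, whose starts had the most CpG among the 22 Hox genes with a window in the table used. The Hoxa10 window is chr6:52240855-52241104 on the minus strand with 7 CpG (another annotated start of this gene has 21 in its 300-base window), and the Hoxa13 window is chr6:52260881-52261130 on the minus strand with 35 CpG. The Hoxd1 window is chr2:74762730-74762979 on the plus strand with 24 CpG, and the Hoxd13 window is chr2:74667975-74668224 on the plus strand with 31 CpG. In GENCODE M21 no exon lies in 3 of these windows, while 118 bases of the Hoxd1 window are exonic in Haglr, a noncoding gene of the opposite strand.
Hoxa10: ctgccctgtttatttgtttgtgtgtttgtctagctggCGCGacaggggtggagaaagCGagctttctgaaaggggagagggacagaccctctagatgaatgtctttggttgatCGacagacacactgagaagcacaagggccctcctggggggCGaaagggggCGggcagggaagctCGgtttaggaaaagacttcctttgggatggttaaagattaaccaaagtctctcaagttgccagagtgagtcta
Hoxd1: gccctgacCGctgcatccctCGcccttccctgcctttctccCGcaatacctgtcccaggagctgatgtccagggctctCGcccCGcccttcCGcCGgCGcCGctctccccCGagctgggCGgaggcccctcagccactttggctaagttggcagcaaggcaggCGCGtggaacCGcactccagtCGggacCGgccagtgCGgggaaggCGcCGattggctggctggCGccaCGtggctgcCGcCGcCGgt
Hoxa13: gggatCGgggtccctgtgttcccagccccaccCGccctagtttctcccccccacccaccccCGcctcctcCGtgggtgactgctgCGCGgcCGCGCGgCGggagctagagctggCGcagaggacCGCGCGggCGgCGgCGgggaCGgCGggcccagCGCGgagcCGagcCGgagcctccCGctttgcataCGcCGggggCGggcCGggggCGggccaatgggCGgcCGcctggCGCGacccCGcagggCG
Hoxd13: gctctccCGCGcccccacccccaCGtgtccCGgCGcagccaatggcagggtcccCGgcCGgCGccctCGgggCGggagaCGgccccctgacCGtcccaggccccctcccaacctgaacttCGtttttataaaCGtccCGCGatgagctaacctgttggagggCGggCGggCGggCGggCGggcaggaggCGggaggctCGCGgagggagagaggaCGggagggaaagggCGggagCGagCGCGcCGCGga

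The libraries held between 26540656 and 34837657 counts on between 23128 and 23900 genes, with protein-coding genes taking 97.1% to 97.5% of the counts and mitochondrial genes 1.32% to 1.51%. Levels are given as CPM, the counts of a gene scaled to the total of its library, or, where genes are compared, as TPM, which also divides by length and was computed here from deposited counts and merged exons. At 1 TPM a library was expected to show between 8.24 and 11.3 counts per kilobase of exon. The cells carried forebrain and radial glial transcripts. The cortical transcription factor gene Lhx2 was at 107 ± 4.30 TPM (SD, n = 4) and Fabp7, the brain lipid-binding protein of radial glia, at 4631 ± 382 TPM. Neuronal transcripts were abundant too, with Tubb3, the neuronal beta-tubulin, at 6691 ± 496 TPM. All 8 radial glia markers and all 6 neuron markers of the lists used here were called above 1 TPM by edgeR, and no label tells how the cells were sorted. In these bulk libraries fewer cells of a type and less RNA per cell cannot be told apart.

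The Hox family was close to silent. Its 39 genes together had 44 counts in the 4 libraries, 29 genes had no count in any library, and no gene had a count in every library. Of all protein-coding genes, 20.3% had no count and 67% had a count in all 4 libraries. Among the 156 pairs of a Hox gene and a library, 13 held a count (8.33%), against 73.1% of such pairs over all protein-coding genes. The plot of counts by cluster and paralog group shows how few of these pairs are filled and that the filled ones do not line up from library to library.

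**Figure D1:**
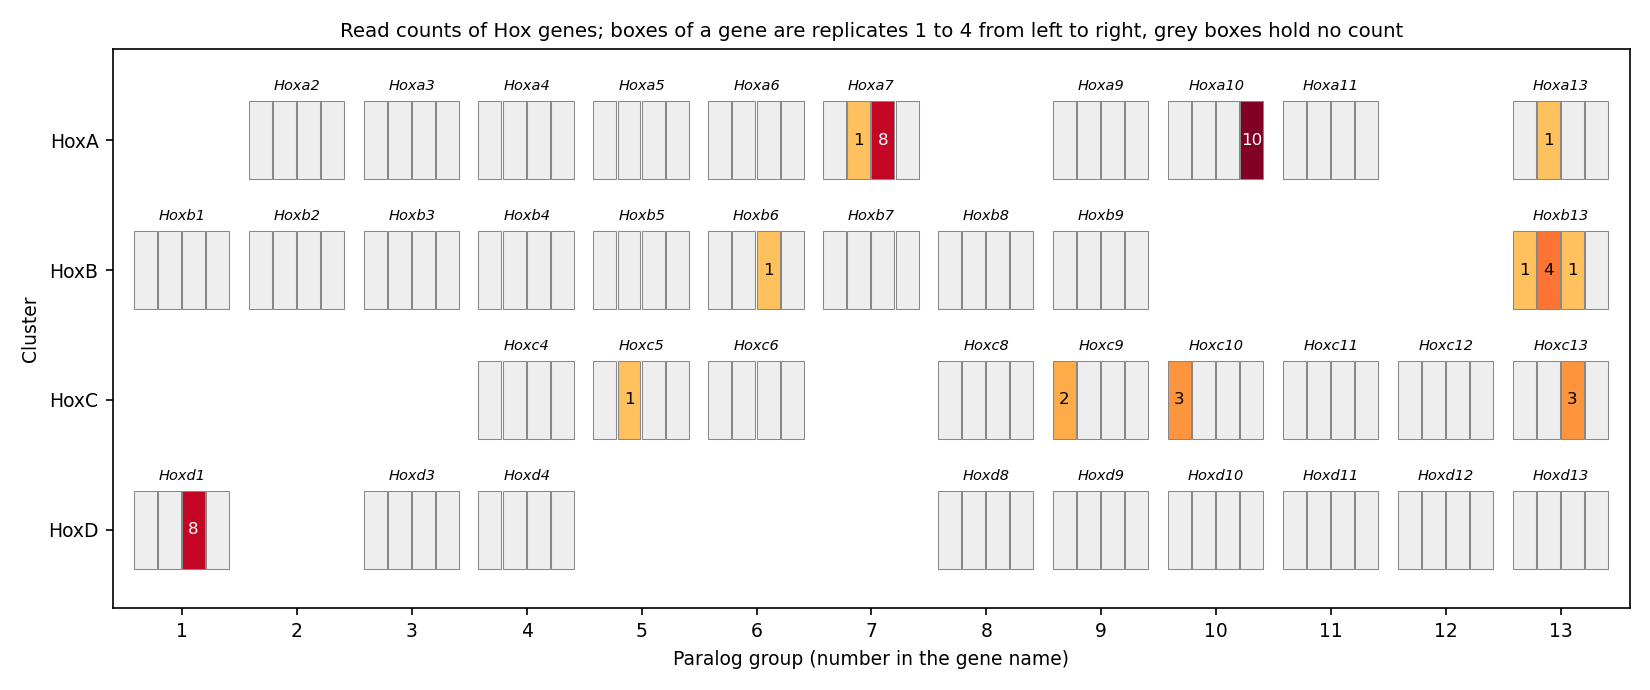
Read counts of 38 of the 39 Hox genes, by cluster (rows) and paralog group (columns). The 4 boxes of a gene are replicates 1 to 4 from left to right, grey boxes hold no count, and 13 boxes hold between 1 and 10 counts.

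The 29 genes without a count came from every cluster. Among them were Hoxa2, Hoxa3, Hoxa4, Hoxa5, Hoxa6, Hoxa9 and Hoxa11 in HoxA and Hoxb1, Hoxb2, Hoxb3, Hoxb4, Hoxb5, Hoxb7, Hoxb8 and Hoxb9 in HoxB. In HoxC they were Hoxc4, Hoxc6, Hoxc8, Hoxc11 and Hoxc12, and in HoxD they were Hoxd3, Hoxd4, Hoxd8, Hoxd9, Hoxd10, Hoxd11, Hoxd12 and Hoxd13. Hoxb1, an early patterning gene of the hindbrain, and Hoxa2, the Hox gene with the most anterior domain in the hindbrain, were thus among them. A count of 0 allows up to 3 counts in a library, which is 0.0861 to 0.113 CPM in these libraries. By exon length that limit ran from 0.0443 TPM for Hoxa3, with 6014 exonic bases, to 0.417 TPM for Hoxa6, with 874. It lay under 1 TPM for all 29 genes in every library. Such limits and the intervals below cover counting error only, since reads of amplified cDNA are not independent molecules.

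Part of some Hox genes could not be counted without doubt. Of the 39 genes, 16 share exonic bases with another annotated gene, 10 of them on the opposite strand, and the library protocol as described does not mark strand. The share was highest for Hoxd3 (62.8% of exonic bases), Hoxb3 (52.9%) and Hoxd4 (52.3%). The authors' treatment of reads in such bases was not stated. On the bases that no other gene shares, the limit of a count of 0 ran from 0.0485 to 0.417 TPM over the 29 genes.

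Hoxa10, a gene of lumbar and reproductive tract patterning, had the most counts of the family (ENSMUSG00000000938; GRCm38 chromosome 6, 52231197 to 52240854, minus strand). It had 0, 0, 0 and 10 counts in replicates 1 to 4, or 0.371 TPM in replicate 4 (exact Poisson 95% interval 0.178 to 0.683 TPM). All of its counts therefore stood in 1 library. Hoxa10 was the only Hox gene with at least 10 counts in total, a number that 71.6% of protein-coding genes reached, and so the only one to enter the test against a level of 1 TPM. Its mean level was 0.0928 ± 0.186 TPM (SD, n = 4). The log2 difference from 1 TPM was -3.49 ± 1.34, with the SE derived from the F statistic (edgeR quasi-likelihood test, adjusted p = 0.0367). The call was lost without replicate 1 (edgeR adjusted p = 0.0769), replicate 2 (0.0549) or replicate 3 (0.0711), and without replicate 4 the gene had no count.

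Hoxa7, a thoracic patterning gene next in count (ENSMUSG00000038236; chromosome 6, 52214491 to 52221854, minus strand), had 0, 1, 8 and 0 counts in replicates 1 to 4. That was 0.290 TPM in replicate 3 (interval 0.125 to 0.571 TPM) and 0.0309 TPM in replicate 2, with the counts almost confined to replicate 3. Exonic bases on the opposite strand of another gene made up 20.4% of Hoxa7, so its value is uncertain. Hoxd1, known in the mouse from pain-sensing neurons (ENSMUSG00000042448; chromosome 2, 74762980 to 74765142, plus strand), had 0, 0, 8 and 0 counts. Its 0.447 TPM in replicate 3 (interval 0.193 to 0.881 TPM) was the highest level of any Hox gene in any library. Hoxb13, a gene of the tail end and the prostate (ENSMUSG00000049604; chromosome 11, 96194316 to 96197447, plus strand), had 1, 4, 1 and 0 counts and was the only member with a count in 3 libraries. Its level was 0.0507, 0.161, 0.0472 and 0 TPM in that order.

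Hoxc10, a lumbar patterning gene, had 3 counts, all in replicate 1 (8.70% of its exonic bases are shared with another gene on its strand), and Hoxc13, which acts in hair and nails, had 3 counts, all in replicate 3. Hoxc9, which sets thoracic motor neuron identity, had 2 counts in replicate 1. Hoxa13, Hoxb6 and Hoxc5 had 1 count each, in replicates 2, 3 and 2. In all, 8 of the 10 detected genes had their counts in a single library. The upper bounds of the exact Poisson 95% intervals reached 0.881 TPM at most over all 39 genes and 4 libraries, so no library gave an interval that included 1 TPM for any Hox gene.

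Counts confined to 1 library are common at this level. Of the 7 Hox genes with 2 to 10 counts in total, 5 (71.4%) had them all in 1 library, against 640 of 1494 protein-coding genes in that range (42.8%). With 8 to 10 counts in total this was the case for 2 of 3 Hox genes and for 74 of 352 protein-coding genes (21%). With so few Hox genes the difference was not tested.

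When every gene with at least 1 count entered the fit, all 10 detected Hox genes were called below 1 TPM by edgeR's quasi-likelihood test, as were 23.6% of the 27789 genes in that fit and 20.1% of its protein-coding genes, while 49.8% were called above. The edgeR adjusted p-values ran from 0.00145 for Hoxc5 to 0.0378 for Hoxd1. Lowering the filter raised the protein-coding genes fitted from 15401 to 17156 and those called below from 1769 to 3453. Genes with so few counts are thus mostly called below 1 TPM. The 10 calls follow largely from the low counts and are no separate result about Hox genes. No Hox gene was called above 1 TPM in either fit, at an adjusted or an unadjusted p under 0.05. Nor was Hoxa10, the only Hox gene it tested, by DESeq2's Wald test. Above 1 TPM were 65.9% and below it 12.1% of the 20991 genes with at least 10 counts, and 75.7% and 11.5% of the protein-coding genes among them. The 29 genes without a count cannot enter such a fit and rest on the limits given above.

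By cluster, HoxA had 20 counts on 3 of its 11 genes, HoxB 7 counts on 2 of 10, HoxC 9 counts on 4 of 9 and HoxD 8 counts on 1 of 9. The HoxA sum was 0, 0.0574, 0.268 and 0.377 CPM in replicates 1 to 4, so that it was highest in replicate 4 and empty in replicate 1. The HoxC sum was 0.179, 0.0287, 0.101 and 0 CPM, highest in replicate 1 and empty in replicate 4. HoxB was at 0.0357, 0.115, 0.0671 and 0 CPM, and HoxD had counts in replicate 3 alone. The SD of each cluster's sum was close to or above its mean for HoxA (0.176 ± 0.177 CPM, SD, n = 4), HoxB (0.0544 ± 0.0487 CPM), HoxC (0.0770 ± 0.0799 CPM) and HoxD (0.0671 ± 0.134 CPM), so no order of the clusters can be read from them.

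**Figure D2:**
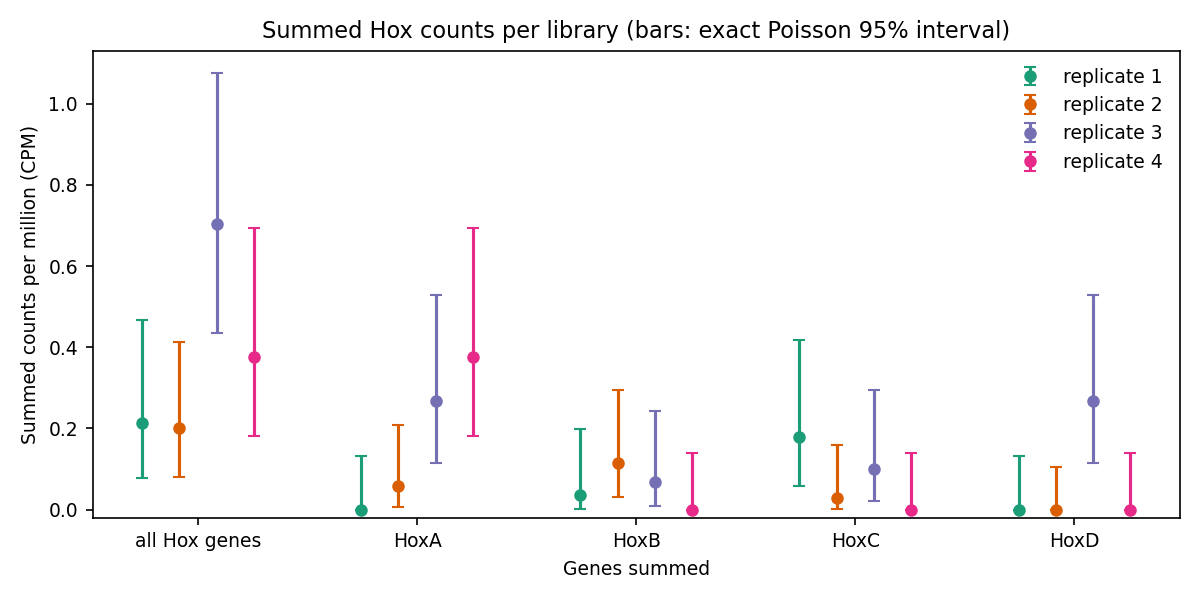
Summed level in CPM of all 39 Hox genes and of each cluster (x axis) in each of the 4 libraries, with exact Poisson 95% intervals as bars. All Hox genes together lie between 0.201 and 0.704 CPM, and the library that is highest differs from cluster to cluster.

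Along the body axis, the 8 genes of paralog groups 1 to 3 had 8 counts, all of Hoxd1, the 15 genes of groups 4 to 8 had 11 counts on 3 genes, and the 16 genes of groups 9 to 13 had 25 counts on 6 genes. Groups 9 to 13 were the only range with a count in every library, at 0.214, 0.144, 0.134 and 0.377 CPM in replicates 1 to 4. Group 13 had a count on 3 of its 4 genes, with 10 counts in total, and group 10 on 2 of 3, with 13 counts. No count fell on any gene of groups 2, 3, 4, 8, 11 or 12. Single libraries carried these totals. Without replicate 3, groups 1 to 3 had 0 counts and groups 4 to 8 had 2, and without replicate 4, groups 9 to 13 had 15, so no trend along the axis can be read from them.

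The whole family stood at 0.214, 0.201, 0.704 and 0.377 CPM in replicates 1 to 4, or 0.374 ± 0.234 CPM (SD, n = 4). Replicate 3 was the highest, with an exact Poisson 95% interval of 0.436 to 1.08 CPM, which does not overlap that of replicate 2 (0.0808 to 0.414 CPM) and does overlap those of replicate 1 (0.0787 to 0.467 CPM) and replicate 4 (0.181 to 0.693 CPM). Without replicate 3 the mean was 0.264 CPM. Summed markers of other cell types in the same order were 23.2, 15.5, 26.7 and 10.2 CPM for the 7 blood and microglia markers, of which 5 were above and 1 below 1 TPM. The 5 mural markers, 2 of them above and 1 below 1 TPM, were at 12.1, 17.7, 19.5 and 13.1 CPM. The 7 endothelium markers (2 above, 3 below) were at 8.26, 6.83, 6.30 and 5.50 CPM, the 6 meninges markers (2 above, 3 below) at 8.22, 9.42, 6.10 and 9.80 CPM, and the 7 erythroid markers (6 above, 1 below) at 586, 1039, 663 and 581 CPM. Each marker of these lists had a count in at least 1 library. At 0 in at least 1 library were 2 mural markers and 1 marker each of the blood and microglia, endothelium and erythroid lists. Blood and microglia markers and mural markers were, like the Hox sum, highest in replicate 3. So were the 8 radial glia markers, at 2955, 3354, 3520 and 3094 CPM in replicates 1 to 4. The 16 forebrain patterning genes were also highest there, at 446, 405, 452 and 406 CPM. The 6 neuron markers were highest in replicate 1, at 8120 CPM. The part of any of these cell types in the Hox counts was not tested.

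Most other genes annotated inside the clusters had no count. Of 46 such genes in the count table, 4 had a count, against 27789 of the 45143 genes of the table matched in GENCODE M21. Many of the 46 are short entries annotated as miscellaneous RNA, so these shares are not of like genes. The antisense gene Hoxaas3 had 4 counts in replicate 1 and the noncoding gene Haglr, which starts beside Hoxd1, had 6 counts in replicate 2, both being named after their counts were seen. No count fell on Hotair, a noncoding RNA gene of HoxC, or on any of the 7 microRNA hairpins, which cDNA primed on poly-A tails is not made to measure. The exception was Gm11539, a processed pseudogene between Hoxb13 and Hoxb9, with 378, 510, 503 and 235 counts or 75.6 ± 17.9 TPM (SD, n = 4). Reads of a processed pseudogene can come from its parent gene, so this value is uncertain.

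Outside the clusters, at 8.75 to 1171 kb from the nearest Hox gene, most neighbours were expressed. Of the 5 nearest protein-coding genes on each side of each cluster, 40 in all, 29 were above 1 TPM and 2 below it, 5 were not called and 4 had too few counts to be tested. Among all protein-coding genes tested 75.7% were above 1 TPM, so 29 of the 36 neighbours tested is near the background. The median neighbour was at 17.8 TPM, against 0 TPM for the median Hox gene and 2.56 TPM for the median protein-coding gene, and this difference was not tested.

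Lnpk, which encodes an endoplasmic reticulum junction protein, lies 88.9 kb from Hoxd13 and was at 23.4 ± 2.90 TPM (SD, n = 4), and Mtx2, a mitochondrial import gene, lies 60.7 kb from Hoxd1 and was at 8.90 ± 1.37 TPM. Evx2, the even-skipped homeobox gene 8.75 kb from Hoxd13, had 2 counts in all, and its paralog Evx1, 52.6 kb from Hoxa13, had none. At HoxA, the neighbour Skap2 had 0.791 ± 0.186 TPM, not called by edgeR (adjusted p = 0.115), and Snx10, a sorting nexin, was at 45.9 ± 7.64 TPM. At HoxB, Skap1 on the Hoxb1 side was called below 1 TPM, at 0.10 ± 0.0231 TPM (edgeR adjusted p = 0.000659), as was Ttll6 on the Hoxb13 side, at 0.0768 ± 0.104 TPM (adjusted p = 0.0155). At HoxC, the nearest neighbours Smug1, a DNA repair glycosylase, and Calcoco1 were at 12.9 ± 0.813 and 99.2 ± 8.62 TPM.

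The clusters were duplicated together with neighbouring genes in early vertebrates, and several neighbours belong to families shared among clusters. The heterochromatin protein genes Cbx3 beside HoxA, Cbx1 beside HoxB and Cbx5 beside HoxC were at 56.5 ± 4.94, 159 ± 4.65 and 108 ± 7.13 TPM (SD, n = 4). The RNA-binding protein genes Hnrnpa2b1 beside HoxA, Hnrnpa1 beside HoxC and Hnrnpa3 beside HoxD were at 971 ± 42.1, 713 ± 26.9 and 65.7 ± 4.07 TPM. Each of these 6 genes was called above 1 TPM by edgeR, as were Atp5g1, Atp5g2 and Atp5g3. Other shared families were mixed or low. Nfe2l1 and Nfe2l2 were above 1 TPM, while Nfe2l3 at 1.17 ± 0.371 TPM and Nfe2 at 0.906 ± 0.564 TPM were not called. Copz1 was above and Copz2 was not called. None of the Skap and Evx genes given above was called above 1 TPM.

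**Figure D3:**
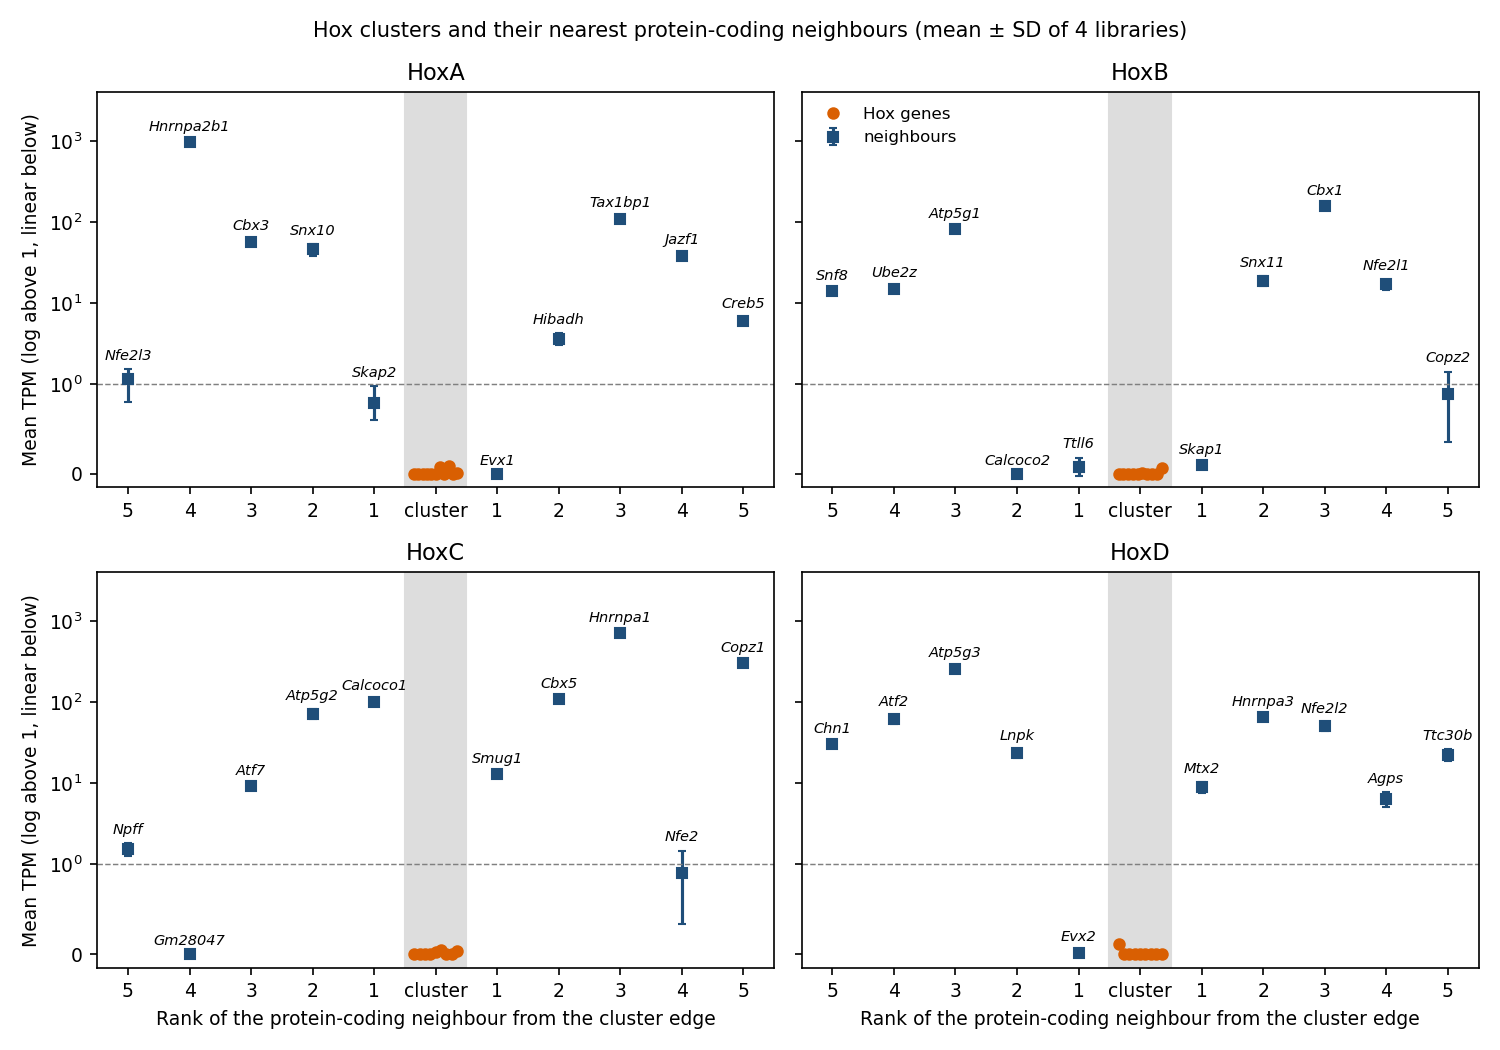
Mean TPM of the Hox genes of each cluster (orange, in the grey band) and of the 5 nearest protein-coding neighbours on each side (blue, by rank from the cluster edge), with the SD over 4 libraries as bars and 1 TPM dashed. The y axis is logarithmic above 1 TPM and linear below it. All Hox genes lie at or below 0.112 TPM, and 29 of the 40 neighbours were called above 1 TPM.

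By the CpG-richest start of each gene, Hox genes and other protein-coding genes had similar median CpG content but not a similar share without counts. RefSeq promoter windows of 300 bases were at hand for 22 of the 39 Hox genes, with 24 starts. They held a median of 14.5 CpG over these starts, against 7 over the 32851 starts of all genes, noncoding ones included. At least 20 CpG were found at 45.8% of the Hox starts and 26.5% of all starts. By the CpG-richest start of each gene the median was 17.5 CpG for the 22 Hox genes and 16 for the 16316 other protein-coding genes with a window. At least 20 CpG were found for 11 of the 22 Hox genes and 6648 of the 16316 others. Of other protein-coding genes whose CpG-richest start had at least 20 CpG, 85.9% were called above 1 TPM and 63 of 6648 (0.948%) had no count. Of the 11 Hox genes with such a start, none was called above 1 TPM and 8 (72.7%) had no count. With 0 to 4 CpG, 2538 of 4150 other genes (61.2%) had no count. The share of Hox genes without a count was 50% or more in each CpG class, while in other genes the share fell steadily with CpG content. This is a description, and the difference was not tested.

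**Figure D4:**
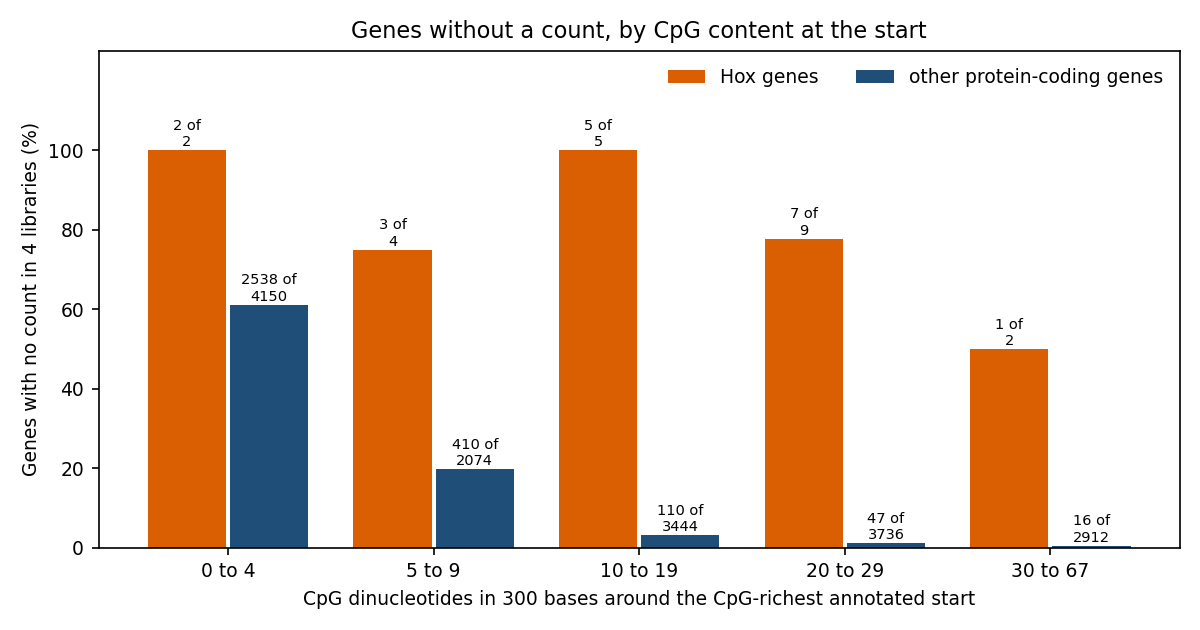
Percentage of genes with no count in the 4 libraries, by the number of CpG in the 300 bases around the CpG-richest annotated start of each gene, for Hox genes (orange, left) and other protein-coding genes (blue, right). Numbers above the bars are genes without a count of genes in the class. In other genes the percentage is 61.2% in the lowest class and 0.549% in the highest, while 7 of 9 Hox genes with 20 to 29 CpG have no count.

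Motif letters in these windows were counted next to the CpG. The TATA box letters TATAAA were found on either strand in 4 of 24 Hox starts (16.7%) and in 13.6% of all starts. TGATNNAT, the letters bound by pairs of TALE and Hox proteins, stood in 4 of 24 (16.7%) and 8.85% of all starts, among them that of Hoxb1, whose self-regulation in the hindbrain is well known. CCAAT was found in 15 of 24 (62.5%) and 37.4%. A match is a run of letters in this window and says nothing of binding; overlaps between motifs were not removed.

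RNA for the partners of Hox proteins was present. Each of the 9 TALE homeodomain cofactor genes, whose products bind DNA together with Hox proteins and also act without them, was called above 1 TPM by edgeR, as were 75.7% of the protein-coding genes tested. Their median was 11.5 TPM against 0 TPM for the Hox genes and 4.79 TPM for all genes tested. Meis2 was at 86.1 ± 9.20 TPM (SD, n = 4), Pknox1 at 32.5 ± 1.94 TPM and Pknox2 at 22.2 ± 1.75 TPM.

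Genes of the machinery that keeps Hox clusters silent or active were expressed as well. Of 22 Polycomb genes, 21 were above 1 TPM and 1 was below it, beside 75.7% above and 11.5% below among protein-coding genes tested, and the median was 16.2 TPM. The highest were Rbbp4, a histone-binding subunit, at 221 ± 15 TPM, Rnf2, the ubiquitin ligase of the first Polycomb complex, at 170 ± 25.2 TPM, Rbbp7, a relative of Rbbp4, at 101 ± 4.58 TPM and Phc1 at 46.6 ± 3.33 TPM. The histone methyltransferase complex was represented by Ezh2 at 24.4 ± 2.49 TPM, Eed at 20.2 ± 4.80 TPM and Suz12 at 18.3 ± 2.69 TPM, and the gene below 1 TPM was Cbx7 at 0.263 ± 0.346 TPM (edgeR adjusted p = 0.0261). These last 4 genes were chosen after their values were seen. Each of the 11 trithorax and histone demethylase genes, which oppose Polycomb silencing, was called above 1 TPM, beside the same 75.7%. Their median was 22.4 TPM, and the highest were Dpy30 at 484 ± 21.7 TPM, Kdm6b at 143 ± 4.34 TPM, Men1 at 65.6 ± 6.70 TPM and Psip1 at 60.1 ± 6.30 TPM. RNA levels do not show where these proteins bound.

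Of 11 genes known to activate Hox genes in the embryo, 6 were above 1 TPM, 2 below it and 1 not called, and 2, Cdx1 and Cdx2, had no count. The 6 of 9 tested that were above lie near the 65.9% of all genes tested and under the 75.7% of protein-coding genes. Egr2, a hindbrain segment factor with other roles in neurons and immune cells, was at 23.0 ± 3.07 TPM (SD, n = 4). The secreted factor gene Gdf11 was at 19.8 ± 3.36 TPM and the retinoic acid receptor gene Rarb at 5.43 ± 0.451 TPM, the last uncertain because 38.4% of its exonic bases lie opposite another gene.

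Of 16 forebrain patterning genes, 9 were above 1 TPM and 3 below. The 9 of 15 tested that were above lie under the 75.7% of protein-coding genes. The list median of 4.49 TPM lies between the 2.56 TPM of all protein-coding genes and the 4.79 TPM of all genes tested. Among the highest were Lhx2, given above, Emx1 at 24.2 ± 4.83 TPM and Pax6 at 21.1 ± 2.40 TPM. Of 15 midbrain and hindbrain genes, 1 was above and 4 below 1 TPM, 2 were not called and 8 had too few counts to be tested, with a median of 0.0842 TPM. The gene above was En1, a midbrain-hindbrain homeobox gene, at 2.16 ± 0.780 TPM (edgeR adjusted p = 0.000771), followed by Wnt1 at 0.763 ± 0.428 TPM, Gbx2 at 0.572 ± 0.155 TPM and Irx2 at 0.161 ± 0.101 TPM. For Gbx2, 43.5% of exonic bases lie opposite another gene. Of 9 genes in a list of ParaHox and even-skipped genes, 7 had too few counts to be tested. By edgeR 1 was below 1 TPM, 1 was not called and none was above. No count fell on 4 of the 9, beside 20.3% of all protein-coding genes, and the median was 0.0133 TPM. The highest were Gsx2 at 0.298 ± 0.263, Cdx4 at 0.196 ± 0.169, Gsx1 at 0.125 ± 0.115 and Mnx1, a homeobox gene of neither kind, at 0.0405 ± 0.0809 TPM. Of 10 posterior embryo and limb factors, 7 had too few counts to be tested. Among the others 2 were not called, 1 was below 1 TPM and none was above. Their list had a median of 0.0346 TPM. Tbx6 was highest at 1.08 ± 0.331 TPM, followed by T, Msgn1 and Gata4 at 0.25, 0.198 and 0.123 TPM.

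**Figure D5:**
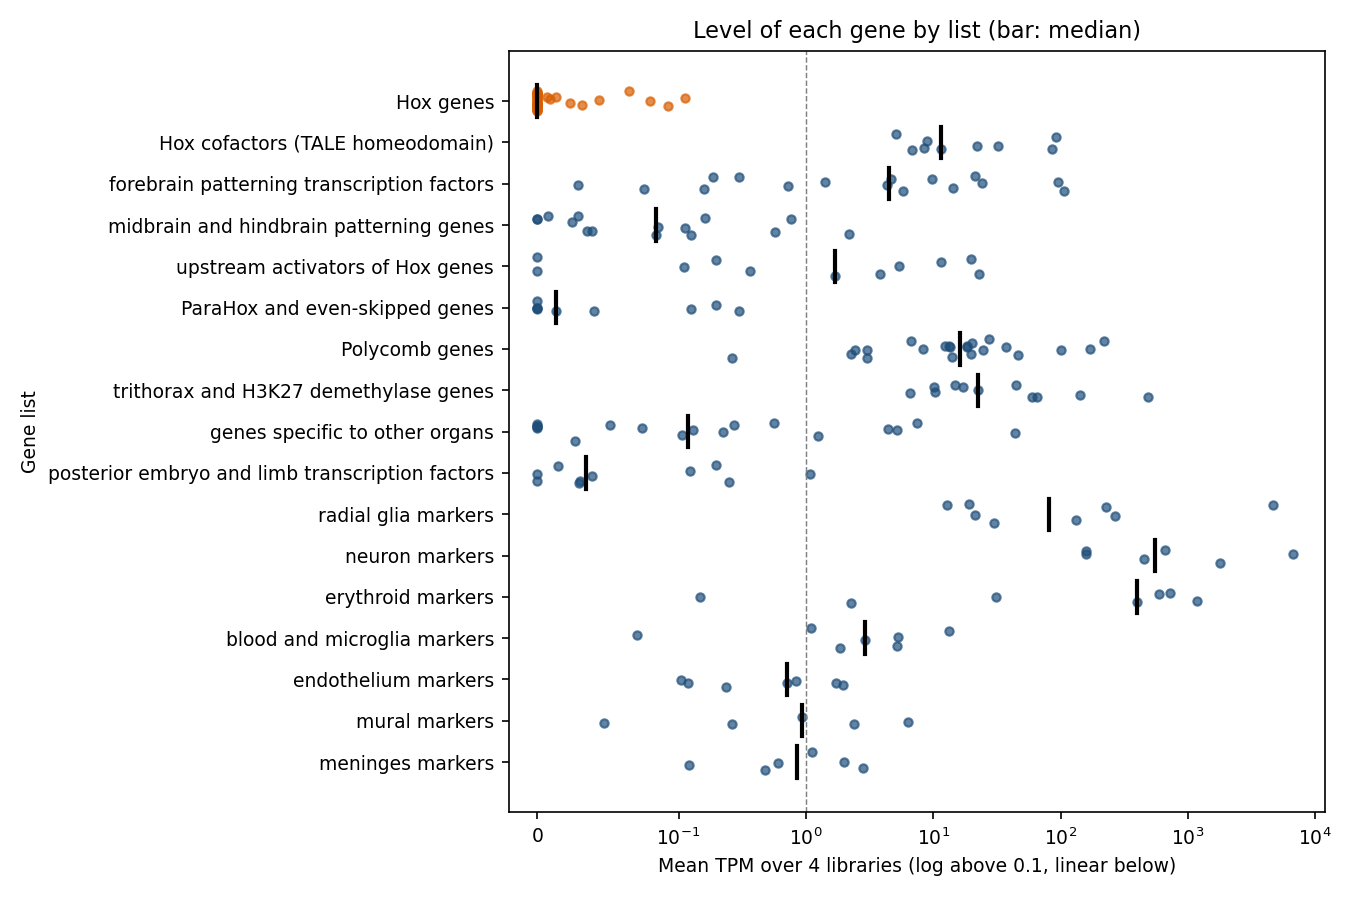
Mean TPM over 4 libraries of each gene, by list (rows), with the median of each list as a black bar and 1 TPM dashed. The x axis is logarithmic above 0.1 TPM and linear below it. The Hox genes (orange, top) have a median of 0 TPM, while their TALE cofactors have a median of 11.5 TPM.

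Not every gene foreign to the cortex was as low. A list of 18 organ-specific genes from outside the brain had 4 members above 1 TPM and 2 below it, and the median was 0.118 TPM. Too few counts to be tested were found for 8, among them 5 with no count. Beside these stand 75.7% above and 11.5% below among protein-coding genes tested, and 20.3% of all protein-coding genes without a count. The genes above 1 TPM were the skin keratin gene Krt10 at 43.9 ± 2.20 TPM, the muscle actin Acta1 at 7.48 ± 1.89 TPM, the proglucagon gene Gcg at 5.16 ± 1.12 TPM and the pancreatic lipase gene Pnlip at 4.38 ± 0.828 TPM. The highest mean of a Hox gene was 0.112 TPM, that of Hoxd1.

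Large families of sensory receptors had a still higher share of genes without a count. Of 1020 olfactory receptor genes, 95.2% had no count, as had 94.5% of 291 vomeronasal receptor genes and 85.7% of 35 bitter taste receptor genes, against 74.4% of the 39 Hox genes. Counts per kilobase of exon, summed over the 4 libraries, were 0.428 for Hox genes, 0.108 for olfactory, 0.131 for vomeronasal and 0.908 for bitter taste receptor genes, and 1206 for all protein-coding genes. Other families of developmental transcription factors had more members with a count, with none for 7 of 44 Fox genes, 4 of 13 T-box genes, 1 of 9 Pax genes and 1 of 6 Irx genes, and a count for all 19 Sox, 8 Lhx and 6 Dlx genes. Irx and T-box genes were low as well, with 3.77 and 5.04 counts per kilobase of exon, and the highest mean of an Irx gene was 0.169 TPM. Among these transcription factor families the Hox genes had the highest share without a count. The families were chosen after the counts were seen and were not tested against each other.

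The deposited TPM table held 18 of the 39 Hox genes, 13 of them listed at 0 in all 4 libraries and 5 with a value. In it Hoxa10 stood at 0.441 TPM in replicate 4 and Hoxa7 at 0.398 TPM in replicate 3, against 0.371 and 0.290 TPM by exon length. Hoxd1 and Hoxb13 were not among its genes. By exon length no Hox gene reached 1 TPM in any library, nor did any of the 18 in the deposited table. That table held 15403 of the 21519 protein-coding genes.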

How the data were processed

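The authors deposited raw read counts, 1 whole number for each Ensembl identifier and library. The submitters' processing notes name bcl2fastq 2.19.1, STAR 2.5.2b and the GRCm38 build. Which program counted reads, with which annotation and strand setting, was not stated by any label or note. The TPM values the authors deposited, whose length basis is likewise unstated, served for a side comparison only.

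GENCODE M21 gave names, types and exon lengths for 45143 of the 45706 identifiers. The remaining 563 held 0.120% to 0.125% of the counts. Promoter sequences are from RefSeq (GRCm38.p6). TPM was recomputed from the counts with merged exon lengths. Genes with at least 10 counts in total were tested against 1 TPM, two-sided, in edgeR 4.0.16 (R 4.3.3). The quasi-likelihood F statistic was formed from edgeR's fit, the null mean being the count expected at 1 TPM. Adjustment was by Benjamini-Hochberg over all genes fitted, with a threshold of 0.05. DESeq2 1.42.0 was an alternative. The test was also run on simulated libraries with genes set at known levels, and the outcome is not given here. Exact Poisson 95% intervals came from SciPy 1.17.1. No pair of libraries agreed within sampling noise (chi-square per gene 9.20 or more, where 1 is noise).

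The Hox genes, the gene lists and the tests were chosen with earlier results of these data known. Named by rule were every Hox gene with at least 10 counts, the 6 Hox genes with the most counts, the Hox genes without a count, the 4 highest genes of each list, and genes in or beside the clusters with at least 10 counts. Evx1 and Evx2 were added after their counts were seen. A few genes that these rules would name are not reported here.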

Additional observations from a re-analysis of the deposited data

Results flagged for a closer look

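In 113 sets of 4 library values, the library farthest out was compared with the others by Dixon's ratio. For normally distributed values chance exceeds its limit in about 1 in 20 sets. That rate does not hold for a gene with counts in a single library, whose ratio is always 1. Of the 113 sets 20 were flagged, 10 of them of Hox genes or a Hox cluster. For 9 of the 10 detected Hox genes 1 library stood apart, and for 8 of them this follows from all counts lying in 1 library. The values of that library were 0.377 CPM for Hoxa10 (replicate 4), 0.268 CPM for Hoxa7 and 0.268 CPM for Hoxd1 (both replicate 3), 0.107 CPM for Hoxc10 and 0.0715 CPM for Hoxc9 (both replicate 1), 0.101 CPM for Hoxc13 and 0.0335 CPM for Hoxb6 (both replicate 3), and 0.0287 CPM for Hoxa13 and for Hoxc5 (both replicate 2). The HoxD sum of 0.268 CPM in replicate 3 is that of Hoxd1.

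Among cluster neighbours replicate 4 stood apart for Skap2 (1.07 TPM), Snx10 (57.3 TPM), Atp5g2 (56.6 TPM) and Lnpk (27.8 TPM). Replicate 1 stood apart for En1 (3.32 TPM), and replicate 2 for Egr2 (27.5 TPM), Gdf11 (14.8 TPM) and the globin genes Hbb-bs, Hba-a1 and Hba-a2 (1712, 1027 and 821 TPM), whose near-identical copies can share reads.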

How the results depend on the processing

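The number of Hox genes called below 1 TPM was 1 with TMM scaling, DESeq2 size factors, DESeq2's Wald test, the longest transcript as length or unshared exonic bases, as in the result above, and 10 with every gene of at least 1 count fitted. It was 0 when replicate 1, 2 or 3 was left out; without replicate 4, or with at least 40 counts, no Hox gene was tested. The number above 1 TPM was 0 in each of these fits. All but the fit of every gene with at least 1 count tested Hoxa10 alone or no Hox gene, so this 0 says little of the family. Hox genes with a count in every library numbered 0 to 1 with a replicate left out, the 1 being Hoxb13 without replicate 4, and those with no count 30 to 32. The summed Hox level was 0.264 to 0.432 CPM with a replicate left out. Counts by paralog range, an alternative added after seeing the data, ran from 0 to 8 for groups 1 to 3, 2 to 11 for groups 4 to 8 and 15 to 21 for groups 9 to 13 with a replicate left out. Depth limits each gene to the floors given above. No paired analysis was possible because the labels give a single group.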
